A study of Mus musculus with 6 samples.

Results

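A group of 7 genes with roles in purine metabolism and differentiation at the tip of the intestinal villus were followed across the small intestinal mucosa of alk-SMase knockout (KO) and wild type (WT) mice. They were Enpp3, Nt5e, Ada, Slc28a1, Slc28a2, Egfr and Klf4, listed by symbol for their known roles, with earlier results of these data known, and are 7 of the 22700 genes of the deposited table. RNA came from the mucosa of the middle small intestine of 3 KO mice (K79S, K82S, K86S) and, for comparison, of 3 WT mice (W83S, W89S, W90S), 1 library each. The authors name C57BL/6 mice in describing the knockout, and all 6 mice were kept on a standard pellet diet. The KO mice lacked exon 2 of Enpp7, the gene of alk-SMase, which had been removed with the Cre-loxP system. The promoter of the Cre and the age and sex of the mice are not given in the sources used here. Values are FPKM, which are scaled to transcript length and sequencing depth, so they may be set side by side between genes.

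Epithelial cells of the small intestine are born in crypts, move up the villus as enterocytes and are shed at its tip, and the enterocytes near the tip use a set of genes that differs from that of the villus base. Part of this set handles extracellular nucleotides. The ectoenzyme Enpp3 cleaves ATP and other nucleotides, Nt5e (CD73) turns AMP into adenosine, adenosine deaminase (Ada) turns adenosine into inosine, and the sodium-coupled transporters Slc28a1 and Slc28a2 take nucleosides into the cell. The receptor Egfr and the transcription factor Klf4, which restrains division and accompanies differentiation, also belong to the programme of the upper villus. RNA of whole mucosa holds no position along the villus, so the place of these genes is background and was not measured. Fewer cells of a type and less RNA per cell cannot be told apart in such samples.

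In the deposited table the gene identifiers stand beside rows of other genes. The ranking of identifiers by K79S had to be matched with the ranking of rows by W83S, with small offsets, and 12402 identifiers were placed in this way. All 7 genes were placed, between 63 and 1609 ranks away from the nearest gap in the matched ranges. The number of printed decimals gives a check that does not use the ranking, since rows with at most 6 decimals come from genes with a single annotated transcript. In windows of 50 ranks to either side of the 7 genes, decimals and annotation matched for 87.1% to 100% of genes, against 45.5% to 62.4% when the offset was shifted by 1 rank. Over all placed genes with such a comparison they matched for 95.8%, beside 56.3% with the identifiers as deposited. All values below rest on this placement.

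The libraries differed in ways that touch these genes. In W83S the 6 placed gastric marker genes, such as Tff1 and Pgc, summed to 38524 FPKM, and to at most 5.24 FPKM in any other library. Markers of the proximal small intestine had a sum of 154 FPKM for K82S and 281 for W89S, while the remaining 4 libraries had 537 to 928. Markers of the distal small intestine had a sum of 1694 FPKM for K82S and 905 for W89S, against 304 to 684 elsewhere. The sum of the crypt markers was 8.76 to 33.8 FPKM among KO and 35.6 to 83.4 FPKM among WT libraries. That of the Paneth cell markers was 655 (K79S), 4613 (K82S) and 1228 (K86S) FPKM among the KO mice, against 2570 (W83S), 8822 (W89S) and 6848 (W90S) for WT. The Y-linked genes Ddx3y and Eif2s3y summed to 0.028 FPKM in K79S and to at least 8.62 FPKM in the other libraries. K79S thus held almost no Y-linked RNA, unlike the other KO libraries and all WT libraries. The part of sex in the levels of these genes was not tested. Epithelial markers (Epcam, keratins, Vil1 and others) were abundant in all libraries, with sums from 5192 to 8045 FPKM. Enpp7 had 605 (K79S), 129 (K82S) and 669.7 (K86S) FPKM among the KO mice, against 406 (W83S), 667 (W89S) and 495 (W90S) for WT, and values of the whole gene do not show the loss of exon 2.

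The 7 genes covered a wide span of levels. By mean FPKM over the 6 libraries Ada stood first with 709 FPKM, above 99.3% of the 13089 rows tested, followed by Klf4 (163), Enpp3 (89.7), Slc28a2 (84.0), Slc28a1 (33.8), Nt5e (15.3) and Egfr (1.59). Each gene lay above the next in all 6 libraries, with 1 exception. Enpp3 exceeded Slc28a2 in 4 of 6 libraries, so the order of this pair does not hold beyond the spread between libraries. The mRNA of the deaminase was 31.8 to 59.7 times as abundant as that of Nt5e, the enzyme one step earlier in the breakdown of AMP.

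**Figure D1:**
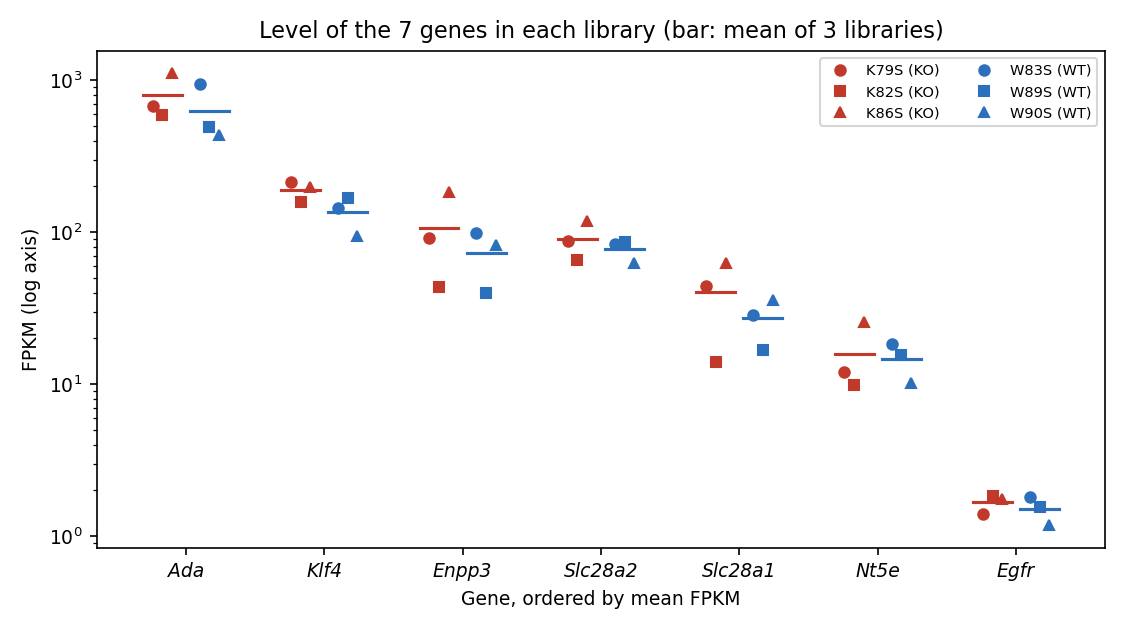
FPKM of the 7 genes on a log axis, ordered by mean level, with 1 point per library, KO in red and WT in blue, and a bar at the mean of 3 libraries of a genotype. KO and WT points overlap for each gene, Ada is at 433 FPKM or more in each library, and Egfr stays between 1.18 and 1.84 FPKM.

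None of the 7 genes passed the test between KO and WT. All 7 had a higher mean log2(FPKM + 1) in KO, where 42.3% of all rows tested did, but the KO and WT libraries overlapped for each of the 7, while 17.2% of all rows had no overlap. The median log2 fold change of the 7 genes was 0.38, beside -0.061 over all rows, and the adjusted p-values lay between 0.428 and 0.979 (limma with Benjamini-Hochberg adjustment over 13089 rows). Calling rows at an adjusted p-value below 0.05 with more than 1.5-fold difference either way, 0.00764% of them were called, a single row that was lower in KO. At an unadjusted p under 0.05 there were 0 of the 7 genes and 12.5% of all rows. The exact permutation test, two-sided, cannot go below p = 0.1 with 3 libraries against 3.

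**Figure D2:**
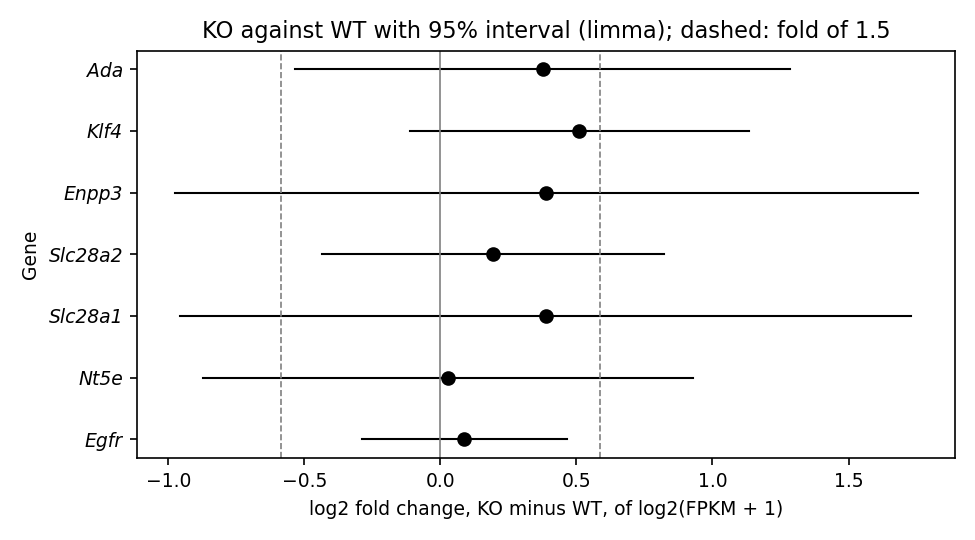
log2 fold change of KO minus WT on the log2(FPKM + 1) scale for each of the 7 genes, with its 95% interval from limma; the dashed lines mark a fold of 1.5 in either direction. All 7 points lie at or above 0.029 and all 7 intervals include 0, with the narrowest for Egfr and the widest for Enpp3.

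Among the enzymes outside the cell, Enpp3 comes first, since it breaks down nucleotides from which Nt5e then makes adenosine. Enpp3 (ENSMUSG00000019989.8) lies on chromosome 10, minus strand, from 24772406 to 24842823 (mm10, GENCODE M21), with 9 annotated transcripts, 4 of them protein-coding. It had 90.9 (K79S), 43.4 (K82S) and 183 (K86S) FPKM among the KO mice, against 98.4 (W83S), 39.6 (W89S) and 82.2 (W90S) for WT. The lowest 2 values were those of K82S and W89S, 1 of each genotype, and K86S stood above all others. The means were 106 ± 71.2 FPKM for KO against 73.4 ± 30.4 for WT (SD, n = 3). The log2 difference between genotypes was 0.39 (95% interval -0.98 to 1.75, adjusted p = 0.790 from limma), with p = 0.6 in the exact permutation test. Its residual SD between libraries of a genotype, 0.87 on the log2 scale, was larger than that of 96.3% of rows.

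Enpp3 belongs to the same family as Enpp7, the gene that lacked exon 2 in the KO mice. Enpp7 was more abundant than Enpp3 in each library, by 2.97 times in K82S, 3.65 times in K86S and 16.9 times in W89S, with values in between in the other libraries. The remaining family members that were placed were low, with Enpp5 at 0.502 to 3.34 FPKM and Enpp4 at 0.42 to 1.70 FPKM. None of the 3 family members that were tested passed.

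Nt5e (ENSMUSG00000032420.8) lies on the plus strand of chromosome 9 from 88327197 to 88372092. It had 11.9 (K79S), 9.92 (K82S) and 25.8 (K86S) FPKM among the KO mice, against 18.2 (W83S), 15.6 (W89S) and 10.2 (W90S) for WT. K86S held the highest value, while K79S lay below 2 of the 3 WT libraries and K82S below all 3. The log2 fold change was 0.029 (95% interval -0.87 to 0.93, adjusted p = 0.979 from limma), so a rise or fall of up to about 1.9 times would lie within the interval.

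Ada (ENSMUSG00000017697.3), on chromosome 2, minus strand, from 163726584 to 163750239, had 677 (K79S), 593 (K82S) and 1108 (K86S) FPKM among the KO mice. The WT values were 949 (W83S), 495 (W89S) and 433 (W90S) FPKM. All 3 KO libraries lay above W89S and W90S, and W83S, the library with gastric genes, lay above 2 of the 3 KO libraries. The means were 793 ± 276 FPKM for KO against 626 ± 282 for WT (SD, n = 3), with a log2 fold change of 0.38 (95% interval -0.53 to 1.29, adjusted p = 0.688 from limma). Without W83S, Ada no longer overlapped between genotypes (7.72% of all rows had KO above WT in this way), the log2 fold change was 0.72 and the adjusted p from limma was 0.546.

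The 2 nucleoside transporters were both highest in K86S and then K79S, but differed in the order of the other libraries. Slc28a1 (ENSMUSG00000025726.11), which prefers pyrimidine nucleosides, lies on the plus strand of chromosome 7 from 81114799 to 81170416. It had 44.4 (K79S), 14.03 (K82S) and 63.0 (K86S) FPKM among the KO mice, against 28.7 (W83S), 16.8 (W89S) and 36.0 (W90S) for WT. Its 2 lowest libraries were K82S and W89S, as for Enpp3, and its 2 highest were K79S and K86S. Slc28a2 (ENSMUSG00000027219.13), which prefers purine nucleosides, lies on the plus strand of chromosome 2 from 122426477 to 122461137 and had 87.0 (K79S), 65.6 (K82S) and 119 (K86S) FPKM among the KO mice. The WT values were 83.8 (W83S), 86.5 (W89S) and 62.2 (W90S) FPKM. W89S, one of the 2 lowest libraries for Slc28a1, was thus the highest WT library for Slc28a2. The highest library exceeded the lowest by 4.49 times for Slc28a1 and by 1.91 times for Slc28a2, and the level of Slc28a2 was 1.73 to 5.15 times that of Slc28a1. The log2 fold change was 0.39 for Slc28a1 (95% interval -0.96 to 1.73, adjusted p = 0.787 from limma) and 0.19 for Slc28a2 (95% interval -0.43 to 0.82, adjusted p = 0.772 from limma).

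The bases upstream of the RefSeq starts of the transporters and of Enpp3 are shown because Slc28a1 and Enpp3 varied more between libraries than Slc28a2. The sequences are from RefSeq (GRCm38.p6), on the strand of the gene and without annotated exons, and capitals mark matches on either strand to CNATAAA (a motif of CDX factors), AGATAA (a motif of factors of the GATA family), CAAAGTNCA (HNF4) or TGANTCA (AP-1). They cover chr7:81114549-81114798 (plus strand) for Slc28a1, chr2:122426185-122426434 (plus strand) for Slc28a2 and chr10:24836226-24836445 (minus strand) for Enpp3. The RefSeq start of Enpp3 lies inside the longer span given above, and bases next to it that GENCODE annotates as exon were left out, so this window has 220 bases.
Slc28a1: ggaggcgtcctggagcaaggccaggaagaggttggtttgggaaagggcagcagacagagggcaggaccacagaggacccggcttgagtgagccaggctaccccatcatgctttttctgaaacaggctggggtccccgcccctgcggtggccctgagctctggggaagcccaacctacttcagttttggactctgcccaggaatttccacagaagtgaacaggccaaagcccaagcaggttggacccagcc
Slc28a2: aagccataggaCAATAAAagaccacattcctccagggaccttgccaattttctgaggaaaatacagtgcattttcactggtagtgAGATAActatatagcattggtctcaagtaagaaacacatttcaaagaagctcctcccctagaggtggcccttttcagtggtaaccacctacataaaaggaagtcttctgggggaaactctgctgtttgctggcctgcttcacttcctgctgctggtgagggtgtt
Enpp3: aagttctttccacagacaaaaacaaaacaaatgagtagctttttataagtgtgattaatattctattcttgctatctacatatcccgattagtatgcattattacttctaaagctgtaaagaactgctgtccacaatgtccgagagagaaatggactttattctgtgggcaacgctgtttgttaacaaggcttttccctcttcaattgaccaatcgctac

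The window of Slc28a2 held 1 match to CNATAAA, 239 bases before the start, and 1 match to AGATAA, 165 bases before it. Windows of 250 bases held a match to CNATAAA in 9.81%, to AGATAA in 9.99%, to CAAAGTNCA in 1.19% and to TGANTCA in 6.75% of 32851 promoters. No match was found in the 250 bases of Slc28a1 and the 220 bases of Enpp3, which says only that these letters are not in those bases.

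Egfr (ENSMUSG00000020122.16), the receptor of epidermal growth factor and its relatives, lies on the plus strand of chromosome 11 from 16752203 to 16918158. It was the least abundant and the steadiest of the 7 genes, with 1.39 (K79S), 1.84 (K82S) and 1.76 (K86S) FPKM among the KO mice, against 1.80 (W83S), 1.56 (W89S) and 1.18 (W90S) for WT. The highest library exceeded the lowest by 1.56 times, and KO and WT values were interleaved. The log2 fold change was 0.089 (95% interval -0.29 to 0.47, adjusted p = 0.834 from limma). At this level the added constant of 1 FPKM compresses differences, and with 0.1 or 0.01 FPKM in its place the log2 fold change was 0.14 or 0.15 (adjusted p = 0.827 and 0.823 from limma).

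Klf4 (ENSMUSG00000003032.8), on chromosome 4, minus strand, from 55527143 to 55532466, had the largest log2 fold change of the 7 genes over all libraries, although the ratio of KO to WT mean FPKM was larger for Slc28a1 (1.49) and Enpp3 (1.44) than for Klf4 (1.40). Its level was 214 (K79S), 158 (K82S) and 199 (K86S) FPKM among the KO mice, against 145 (W83S), 168 (W89S) and 94.9 (W90S) for WT. Both K79S and K86S lay above all WT libraries, and K82S lay between W83S and W89S. The means were 190.5 ± 28.8 FPKM for KO against 136 ± 37.4 for WT (SD, n = 3), which gave a log2 fold change of 0.51 (SE 0.26, 95% interval -0.11 to 1.13, adjusted p = 0.428 from limma), with p = 0.2 in the exact permutation test.

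Across libraries the 7 genes fell into patterns that crossed the genotypes. K86S (KO) was the highest library for 5 of the 7 genes, and all 7 lay above their own mean in it. W90S (WT) was the lowest library for 4 of the 7, and K82S (KO) for 2. Slc28a1 and Enpp3 were alike, with profiles that differed by 0.26 on the log2 scale (root mean square over 6 libraries, each gene's mean subtracted). Nt5e and Slc28a2 differed by 0.23, whereas Slc28a1 and Slc28a2 differed by 0.61. This measure also grows with the size of the variation. The SD of log2(FPKM + 1) over 6 libraries was 0.80 for Slc28a1 and 0.33 for Slc28a2. Slc28a1 and Enpp3 were lowest in the same libraries as the proximal marker lactase (Lct), which had 456 (K79S), 76.3 (K82S) and 489.8 (K86S) FPKM among the KO mice, against 243 (W83S), 163 (W89S) and 285 (W90S) for WT. The distal markers Slc51a and Slc51b, both parts of the basolateral bile acid exporter, were highest in K82S, with 885 and 715 FPKM. The part of intestinal position in the levels of these genes was not tested.

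**Figure D3:**
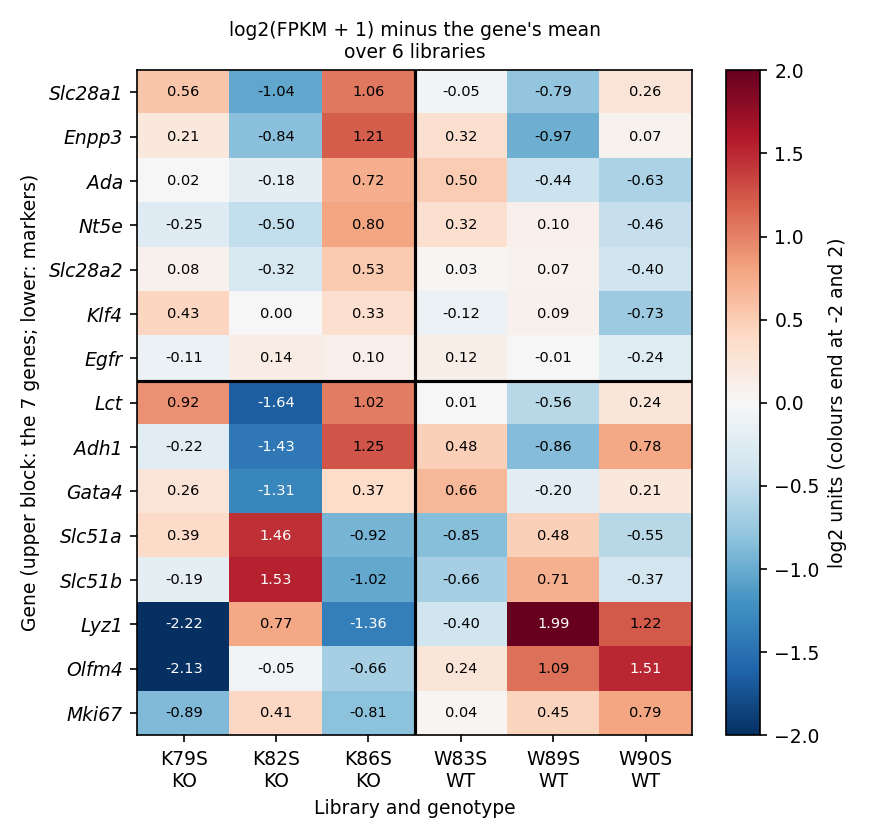
log2(FPKM + 1) of each library minus the gene's mean over 6 libraries, for the 7 genes (upper block) and 8 marker genes of proximal and distal intestine, Paneth cells, stem cells and dividing cells (lower block), with KO libraries on the left. Slc28a1 and Enpp3 share low values in K82S and W89S with the proximal marker Lct, while K86S is above the mean for all 7 genes.

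The genes with the profile most like that of a given member, among placed genes with a mean of at least 1 FPKM and an SD not below 0.5 times that of the member, were described by the same measure over 6 libraries. For Enpp3 these were the fatty acid transporter Cd36 (0.15), the apolipoprotein Apoa4 (0.21), itself abundant near the villus tip, and Gm37450 (0.22). Cd36 had 18.1 (K79S), 8.05 (K82S) and 27.7 (K86S) FPKM among the KO mice, against 18.3 (W83S), 5.88 (W89S) and 14.8 (W90S) for WT. For Slc28a1 they were the organic anion pump Abcc2 (0.195), Rnasek (0.198) and the brush border peptidase Ace (0.199). Dusp6, a phosphatase of the ERK pathway (0.14), the nuclear receptor Ppara (0.16) and Mmp2 (0.19) stood next to Nt5e. For Ada the list held Abhd14b (0.17), Cavin3 (0.19) and Mmp2 (0.196), and for Slc28a2 it held Azin1 (0.103), Gm12220 (0.104) and the glutathione synthesis enzyme Gclc (0.107). For Egfr it held Sh3pxd2a (0.045), Pcgf3 (0.047) and Gm48435 (0.051), and for Klf4 Gm48640 (0.093), Gm6623 (0.098) and Cdipt (0.11). With 6 libraries and 3137 to 11655 genes compared per member, some close profiles are found for any gene.

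Leaving out single libraries changed the picture for several of the genes. Without K82S, the KO library with the lowest proximal and highest distal markers, all 7 genes were still higher in KO, with a median log2 difference of 0.56 (-0.093 over all rows). Slc28a1, Slc28a2 and Klf4 then had KO libraries above all WT libraries, where 11.8% of all rows did. The log2 fold change of Slc28a1 was 1.00 in this comparison (95% interval 0.14 to 1.86, adjusted p = 0.143 from limma), that of Enpp3 0.91 and that of Klf4 0.64 (adjusted p = 0.305 and 0.215 from limma). Without both K82S and W83S, 5 of the 7 genes had both KO libraries above both WT libraries, where 14.2% of all rows did, and again none was called. Without K86S only 3 of the 7 genes were higher in KO and the median log2 difference was -0.021. Without W90S it was 5 of 7, with a median of 0.16, so the direction shared by all 7 genes depended on these 2 libraries.

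Alternatives that were added after seeing the data took marker levels as a covariate. With the proximal minus distal marker level, all 7 genes stayed higher in KO. The log2 fold change of Enpp3 became 0.70 (95% interval 0.34 to 1.06, adjusted p = 0.118 from limma) and that of Slc28a1 0.67 (adjusted p = 0.253 from limma). With the level of crypt and Paneth markers, only Egfr and Klf4 stayed higher in KO, at 0.11 and 0.25. Enpp3 and Slc28a1 turned to -0.57 (SE 0.62) and -0.58 (SE 0.59). The adjusted p-values from limma for the 7 genes were between 0.863 and 0.955. This marker level, a mean of log2(FPKM + 1), was 4.21 (K79S), 6.35 (K82S) and 4.86 (K86S) for KO. For WT it was 5.76 (W83S), 7.08 (W89S) and 6.99 (W90S). It thus went largely with genotype, and with 6 libraries the effects of marker level and genotype can hardly be told apart.

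Besides Ada, 16 enzymes of purine salvage and breakdown were tested. Of these 8 were higher and 8 lower in KO, 0 were called, 2 had an unadjusted p under 0.05 in limma (12.5% of all rows did) and the median log2 fold change was -0.051. Guanine deaminase (Gda) had 169.7 ± 55.6 FPKM for KO against 138 ± 25.4 for WT (SD, n = 3). Xanthine dehydrogenase (Xdh), which makes uric acid, had 179 (K79S), 119 (K82S) and 163 (K86S) FPKM among the KO mice, against 112 (W83S), 87.0 (W89S) and 106 (W90S) for WT. Each KO value was above each WT value, as for 5.9% of all rows, and the log2 difference was 0.58 (SE 0.22, adjusted p = 0.393 from limma). For Itpa and Aprt each KO value was below each WT value, as for 11.3% of rows. Pnp and Pnp2, which cleave inosine after the step of Ada, are close copies whose reads may be shared, and both were highest in K82S, with 79.4 and 139 FPKM. Besides Nt5e and Enpp3, 5 genes of extracellular nucleotide hydrolysis were tested, 4 of them higher in KO and 0 called, with a median of 0.26. The brush border phosphatase Alpi, the most abundant, had 599 ± 212 FPKM for KO against 479 ± 120 for WT, and its relative Akp3 had 62.8 ± 75.6 against 194 ± 326 (SD, n = 3). The third tested nucleoside transporter, Slc29a1, an equilibrative carrier, was low, at 1.26 to 2.58 FPKM. Of 4 receptors for adenosine and nucleotides 3 were higher in KO and 0 were called, with the ATP and UTP receptor P2ry2 at 18.0 ± 10.9 FPKM for KO against 13.1 ± 3.26 for WT, the adenosine receptor Adora2b at 10.2 ± 6.07 against 10.7 ± 4.22 and P2ry1 at 8.89 ± 1.68 against 7.51 ± 1.90 (SD, n = 3).

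Of 13 listed enzymes that build purines anew 11 were tested, and all 11 were lower in KO, as were 57.7% of all rows, with a median log2 fold change of -0.43. In 4 of them, Gart, Paics, Impdh2 and Pfas (named after their values were seen), each KO value was below each WT value, as for 11.3% of all rows. Adss, the most abundant, had 25.3 ± 5.10 FPKM for KO against 27.1 ± 2.11 for WT, and Prps1 had 3.42 ± 0.548 against 3.68 ± 0.256 (SD, n = 3), both with overlap. Gart, which catalyses several steps of the pathway, had 1.02 (K79S), 3.66 (K82S) and 1.32 (K86S) FPKM among the KO mice, against 4.16 (W83S), 4.62 (W89S) and 4.60 (W90S) for WT. The log2 difference was -0.97 (SE 0.31, adjusted p = 0.393 from limma). Of the 11 genes 0 were called, and 3 had an unadjusted p under 0.05 in limma, against 12.5% of all rows. Without K82S there were 9 of 11 with no overlap, where 32.1% of all rows lay below in this way. The stem cell marker Olfm4 and the proliferation marker Mki67 also had lower KO means, Olfm4 with 12.3 ± 8.09 FPKM against 43.9 ± 18.3 and Mki67 with 2.81 ± 2.10 against 5.45 ± 1.65 (SD, n = 3). The part of crypt cells in these levels was not tested.

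Besides Egfr itself, 11 of its relatives, ligands and feedback genes were tested. Of these 8 were higher in KO and 0 were called, with 2 at an unadjusted p under 0.05 in limma (12.5% of all rows) and 2, Erbb3 and Spry1, with each KO value above each WT value (5.9% of all rows). Erbb3, a receptor that pairs with other members of the family, had 70.9 (K79S), 76.3 (K82S) and 69.2 (K86S) FPKM among the KO mice, against 42.5 (W83S), 41.2 (W89S) and 40.9 (W90S) for WT. Its KO and WT libraries were well apart, by 0.78 on the log2 scale (SE 0.14), yet the adjusted p from limma was 0.393. Erbb2 had 32.5 ± 6.04 FPKM for KO against 24.3 ± 2.34 for WT, so both stood far above Egfr, at 1.67 ± 0.243 and 1.51 ± 0.314 FPKM (SD, n = 3). The feedback phosphatase Dusp6 had 33.1 ± 16.0 FPKM for KO against 29.4 ± 4.03 for WT (SD, n = 3). The ligand Hbegf varied within both genotypes, from 12.7 to 40.1 FPKM in KO and from 8.90 to 25.4 FPKM in WT.

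Besides Klf4, 15 transcription factors of villus differentiation were tested. Of these 10 were higher in KO, 0 were called and 2 had an unadjusted p under 0.05 in limma, near the 12.5% of all rows, with a median of 0.096. Prdm1 and Klf3 had all KO libraries above all WT libraries, as 5.9% of all rows did. Prdm1, a repressor known from the change of the neonatal to the adult intestine, had 2.92 ± 0.624 FPKM for KO against 1.36 ± 0.226 for WT, and Klf3 had 15.6 ± 0.691 and 11.4 ± 1.27 FPKM (SD, n = 3; adjusted p = 0.393 from limma for both). The factor Creb3l3, which is also used near the villus tip, had 213 ± 91.3 FPKM for KO against 189 ± 20.4 for WT, and the enterocyte factor Hnf4a had 203 ± 43.5 against 163 ± 46.3 (SD, n = 3). Of the 8 other villus tip genes, 7 were higher in KO and 0 were called, with a median of 0.25. Among them Cdh1 and Neat1 had each KO value above each WT value, as for 5.9% of all rows. Creb3l3 and Batf2 belong to this list and to the transcription factors, so the lists share genes. The keratin Krt20 had 2223 ± 97.2 FPKM for KO against 1910.0 ± 393 for WT, and Apoa4 had 6353 ± 3837 and 5707 ± 2053 FPKM (SD, n = 3). Villus base genes, led by Reg3b, Lypd8 and Reg3g, had a median of -0.10 and mid-villus transport genes, led by Fabp1, Slc5a1 and Sis, of -0.0072, and 0 were called in both lists.

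**Figure D4:**
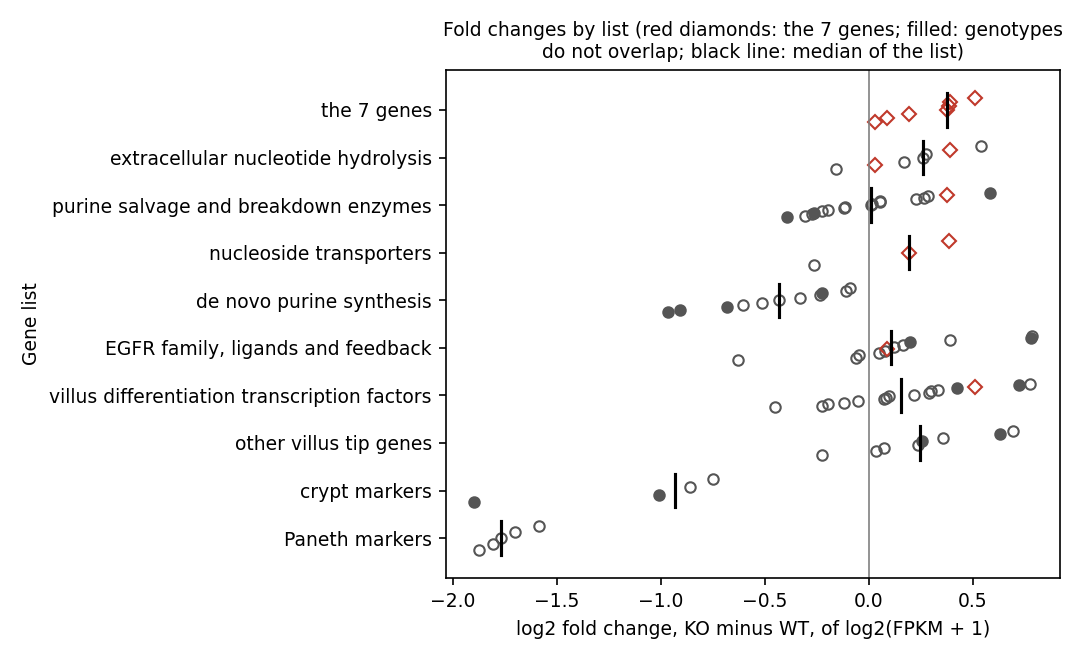
log2 fold change of KO minus WT for each tested gene by list, with red diamonds for the 7 genes, filled symbols where KO and WT libraries do not overlap, and a black line at the median of the list; the height of a symbol within its row has no meaning. The 7 genes all lie to the right of 0 with open symbols, the 11 genes of de novo purine synthesis all lie to the left, and the medians of the crypt and Paneth markers lie further left.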

How the data were processed

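Expression values of mucosa from 3 KO and 3 WT mice were analysed, with groups taken from the genotype labels. Single-end reads of 50 bp had been cleaned of adapters (trim-galore), aligned to mm10 (HISAT2) and summarised by gene (StringTie) by the authors, who deposited FPKM with 1 value per gene and library. Tool versions, annotation and strand setting are not given in the sources used here. FPKM holds no read counts, so no counting interval was computed, and precision rests on the spread between mice. There were 0 columns of values that could not be mapped to a sample.

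Identifiers were moved to their own rows by matching the ranking of identifiers by K79S with that of rows by W83S, with 12 ranges of small offsets, and identifiers outside these ranges were not analysed here. Symbols came from a table of gene names for these identifiers, and transcripts and positions from GENCODE M21. Rows had to reach 1 FPKM in at least 2 libraries, which 13089 did, 12098 of them with a placed gene. Their log2(FPKM + 1) values went into limma 3.58.1 (R 4.3.3) with a variance trend (all 6 libraries, no covariate, Benjamini-Hochberg adjustment). A row was called at an adjusted p under 0.05 and a fold above 1.5 or below its inverse. The fit was tested on simulated data with larger changes than those of the 7 genes. It was not tested for changes of their size. Fold changes on this scale understate the change of low genes. Tables and figures used Python 3.11.15 with pandas 2.3.3, scipy 1.17.1 and matplotlib 3.10.9.

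The genes and the lists were chosen with earlier results of these data known. The rule for named genes took the 7 genes, Enpp7, the called genes of each list (there were 0), the 3 most abundant of each list and the 3 most similar profiles of each gene. Marker lists are given as sums with examples. Other genes are named where their libraries did not overlap, vary widely or are closely related to a step described, and were picked after their values were seen. Lists of Paneth, goblet, T cell, B cell, macrophage, stromal and pancreatic markers served as checks.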

Additional observations from a re-analysis of the deposited data

How the results depend on the processing

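The 18 alternatives gave 126 fold changes for the 7 genes. Of these 114 kept their direction, 12 were reversed and none was called. Changing the filter on low values or dropping the variance trend leaves each fold change as in the main fit. Those directions were thus fixed in advance, and the count of 114 includes them. Klf4 was higher in KO under all 18 (0.25 to 0.81 on the log2 scale, adjusted p from limma between 0.141 and 0.899). With libraries scaled by the epithelial markers Nt5e turned to -0.063. With the crypt and Paneth marker score as covariate, added after seeing the data, Ada turned to -0.18, Nt5e to -0.39, Slc28a1 to -0.58, Slc28a2 to -0.12 and Enpp3 to -0.57. When 1 library was left out at a time, the log2 fold change ranged from -0.36 to 0.29 for Nt5e, from -0.043 to 1.00 for Slc28a1, from -0.021 to 0.40 for Slc28a2, from -0.12 to 0.91 for Enpp3, from -0.010 to 0.17 for Egfr and from 0.11 to 0.72 for Ada. The negative values came without K86S, or without W90S for Egfr and 1 of those for Nt5e (-0.20).

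Over all rows the main setting called 1 row. Pseudocounts of 0.1 and 0.01 called 0 rows (1636 and 1619 at an unadjusted p under 0.05 in limma), array weights 2, the crypt and Paneth score as covariate 0 (882 unadjusted), K82S and W83S both left out 1111, and K82S and W89S both left out 3. Leaving out 1 library gave 0 to 1184 rows, the latter without K82S. Scaling by the epithelial markers moved the median of all rows to -0.14. Scaling each library by its median ratio to the row means moved it to 0.00045. With that scaling all 7 genes were higher in KO, from 0.10 (Nt5e) to 0.59 (Klf4). The summed FPKM of all rows was 393152 to 465901 among KO and 473383 to 495362 among WT libraries. No paired analysis was possible because the labels do not say which KO mouse belongs with which WT mouse. With 3 libraries per genotype the intervals of Enpp3 and Slc28a1 include folds from 0.508 to 3.37 and from 0.516 to 3.32. The causes of these changes were not tested.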

Other observations

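T cell markers were separated by genotype. The 5 tested, among them Cd3e, Cd3g and Cd8a, had KO libraries above all WT libraries, where 5.9% of all rows did. Cd3e had 5.13 ± 0.876 FPKM for KO against 2.51 ± 0.257 for WT (SD, n = 3), and the adjusted p from limma for the 5 was between 0.393 and 0.442. Their sum was 28.3 (K79S), 52.7 (K82S) and 26.8 (K86S) FPKM among the KO mice, against 21.6 (W83S), 18.1 (W89S) and 19.1 (W90S) for WT. Among goblet cell markers, Muc2 and Fcgbp had each KO value above each WT value, as for 5.9% of all rows. They were named after their values were seen. Muc2 was at 7.03 FPKM in W89S and at 68.3 and 68.5 FPKM in W83S and W90S. Clca1 was higher in KO (log2 fold change 0.37) and Tff3 and Agr2 were lower (-0.25 and -0.61), with overlap for these 3. The adjusted p from limma was between 0.393 and 0.823 for the 5. B and plasma cell markers reached a sum of 241 FPKM for K82S, where the remaining 5 libraries had 67.4 to 132. Nt5e and Ada are also used by lymphocytes, and their part in the levels of both genes was not tested. Macrophage markers (39.5 to 67.6 FPKM) and stromal markers (14.9 to 39.4 FPKM) overlapped between the genotypes, and the 2 placed pancreatic markers were highest in W83S, at 14.5 FPKM. Endothelial markers were not analysed here.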
